A study of Mus musculus with 4 samples.

Results

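Gas6 and Pros1 encode the secreted ligands GAS6 and protein S, and Axl, Tyro3 and Mertk encode receptors for either or both of these. The genes were followed across the cell types of the mouse ovary after doxorubicin, anti-Müllerian hormone (AMH) or both. They are 5 of the 32285 genes counted, and each was found by its symbol, which occurred once. The set was chosen partly on measured values, because Gas6 was lower with AMH in granulosa cells. The Gas6 values of granulosa cells are therefore a description and support nothing.

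TYRO3, AXL and MERTK form the TAM family of receptor tyrosine kinases. Both ligands carry a Gla domain, whose glutamate residues are carboxylated in a vitamin K-dependent step and which then binds phosphatidylserine on the surface of dying cells. The other end of the ligand binds the receptor on a neighbouring cell, so that the ligands act as bridges for the engulfment of apoptotic cells, and receptor signalling also restrains the response of macrophages to inflammatory stimuli. In the ovary, granulosa cells die in follicles that stop growing, and macrophages and neighbouring granulosa cells clear them. AMH is made by granulosa cells of growing follicles and signals through a receptor pair of the BMP type.

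The mice were prepubertal, at postnatal day 25, and formed 4 groups of 5 animals. Controls received PBS or saline, the doxorubicin group received 2 weekly doses of doxorubicin, a DNA-damaging cancer drug, at 3 mg/kg, a further group received the same doxorubicin and also recombinant human AMH (0.75 mg/kg), and the last group received only this AMH. Ovaries were taken 4 hours after the second dose, and 1 ovary per animal went into a pool, so each group is 1 single-cell library (10x Genomics 3′ chemistry) with no replicate. Neither the strain nor the timing of AMH relative to doxorubicin is given in the sources used here.

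With 1 library per group, no difference could be tested against the spread between animals. Levels are summed unique molecular identifiers (UMIs) per 1000000 UMIs of the cell class (CPM), and a ratio is the quotient of such levels in the same class of 2 libraries, followed in parentheses by its exact 95% interval. All intervals cover counting error only. A fixed size of 2-fold in either direction, applied to genes whose level averaged 20 CPM or more across libraries, served to name differences, and "rose" and "fell" are used for those past it. The AMH-to-control comparison shares no library with that of doxorubicin+AMH to doxorubicin, and the doxorubicin-to-control comparison shares none with that of doxorubicin+AMH to AMH. The other pairs of comparisons share a library.

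After filtering, 28451 cells remained, 6044 to 7972 per library, with a median of 10663 to 15069 UMIs per cell and 138647495 to 178279122 UMIs per library before filtering. They fell into 32 clusters, 30 of which could be named from marker genes as 11 cell classes. Pairs of libraries shared 11 to 24 cell barcodes, at most 0.281% of the smaller library. The 6 classes with at least 50 cells in every library were compared: granulosa-like (9661 cells), stroma-like (9110), mural smooth muscle-like (3564), theca-like (3034), macrophage-like (580) and blood endothelial-like (435). Granulosa-like cells held the FSH receptor gene Fshr at 102 to 144 CPM and Inha at 2199 to 3487. Over all cells these genes stood at 55.2 to 63.5 and 1034 to 1860 CPM. Foxl2, also on the granulosa marker list, did not separate the class, at 61.7 to 99.5 CPM against 63.3 to 87.5 over all cells. Macrophage-like cells held Adgre1, which encodes F4/80, at 380.3 to 479 CPM. Among the granulosa-like clusters, 2 came almost wholly from the doxorubicin library (178 and 82 cells). Another 2 (926 and 505 cells) had a median depth, over the cells of all libraries, under 33.3% of the library median. In the AMH library the cluster of 505 cells was deeper, at a median of 7393 UMIs against 1628.5 to 3663 in the other libraries. A further shallow cluster holds 208 of the 580 macrophage-like cells.

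Gas6 (ENSMUSG00000031451) lies on the minus strand of chromosome 8, chr8:13465374-13494490 in the GRCm38 (mm10) build. Pros1 (ENSMUSG00000022912) lies at chr16:62854307-62929346 on the plus strand, Axl (ENSMUSG00000002602) at chr7:25757273-25788705 on the minus strand, Tyro3 (ENSMUSG00000027298) at chr2:119797733-119818104 on the plus strand and Mertk (ENSMUSG00000014361) at chr2:128698956-128802894 on the plus strand. At its 3′ end Gas6 overlaps exons of Tmem255b, a gene on the opposite strand, over 3100 bases, and whether reads were counted by strand is not given in the sources used here. Tmem255b had 2 to 35 UMIs in the granulosa-like cells of a library, against 4504 to 14676 for Gas6. In blood endothelial-like cells the numbers are closer, 16 to 66 Tmem255b UMIs against 58 to 263 of Gas6, so there part of the Gas6 count could belong to either gene. The antisense gene Gm14011 lies within Mertk without exon overlap, and no other annotated gene overlapped Pros1, Axl or Tyro3.

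Promoters of all 5 genes were found in RefSeq (GRCm38.p6), as the 300 bases from 250 before the transcription start to 50 after the start. The promoters of Gas6 and Axl are shown because these were the only members with a ratio past 2-fold in a compared class where they passed the level filter. Capitals mark the GC box GGGCGG and the GC-rich SMAD motif GGCGCC on either strand, the latter a sequence bound by the SMAD proteins that act below AMH and BMP receptors; neither motif overlaps the other.
Gas6, chr8:13494486-13494785, minus strand: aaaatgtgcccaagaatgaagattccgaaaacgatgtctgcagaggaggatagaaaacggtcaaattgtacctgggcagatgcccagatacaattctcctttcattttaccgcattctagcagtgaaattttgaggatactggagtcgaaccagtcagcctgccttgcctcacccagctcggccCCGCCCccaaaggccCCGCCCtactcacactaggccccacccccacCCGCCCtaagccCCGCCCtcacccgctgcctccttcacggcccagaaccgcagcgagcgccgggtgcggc
Axl, chr7:25788684-25788983, minus strand: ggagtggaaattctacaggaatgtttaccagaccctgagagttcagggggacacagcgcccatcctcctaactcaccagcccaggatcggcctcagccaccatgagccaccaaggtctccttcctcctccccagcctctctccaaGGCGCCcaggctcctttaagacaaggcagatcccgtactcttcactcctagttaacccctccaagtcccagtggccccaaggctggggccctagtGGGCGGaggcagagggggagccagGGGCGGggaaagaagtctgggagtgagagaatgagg
The Gas6 window holds 4 GC boxes, a number reached by 5.49% of the 32851 mouse promoter windows of this length, and no GGCGCC. The Axl window holds 2 GC boxes and 1 GGCGCC. The windows not shown hold as many GC boxes as Gas6 or more, 5 for Pros1, 6 for Tyro3 and 4 for Mertk. The Mertk window also holds 1 GGCGCC, and those of Pros1 and Tyro3 hold none. GC boxes were present in 35.7% of all windows and GGCGCC in 11.9%. These are matches of letters, and no binding was measured.

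Gas6 was highest in theca-like cells, the steroid-producing cells around the follicle in the control, doxorubicin and doxorubicin+AMH libraries, and in surface epithelial-like cells in the AMH library. In theca-like cells the level was 1794 CPM in the control library, 2045 with doxorubicin, 739 with doxorubicin+AMH and 884 with AMH. Stroma-like cells held 328, 404, 314 and 320.3 CPM in the same order of libraries, and mural smooth muscle-like cells 273, 274, 264 and 250.3 CPM. Macrophage-like cells held 236, 276, 158 and 219.8 CPM and blood endothelial-like cells 70.9, 74.4, 52.3 and 47.5 CPM. Surface epithelial-like cells, 38 to 108 per library, held 614, 1301, 657 and 1231 CPM. The ranges over libraries of theca-like and surface epithelial-like cells overlap, as do those of mural smooth muscle-like and macrophage-like cells, while the stroma-like range lies above the mural smooth muscle-like range and the blood endothelial-like range lies at the bottom, overlapping the lower end of the granulosa-like range.

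**Figure D1:**
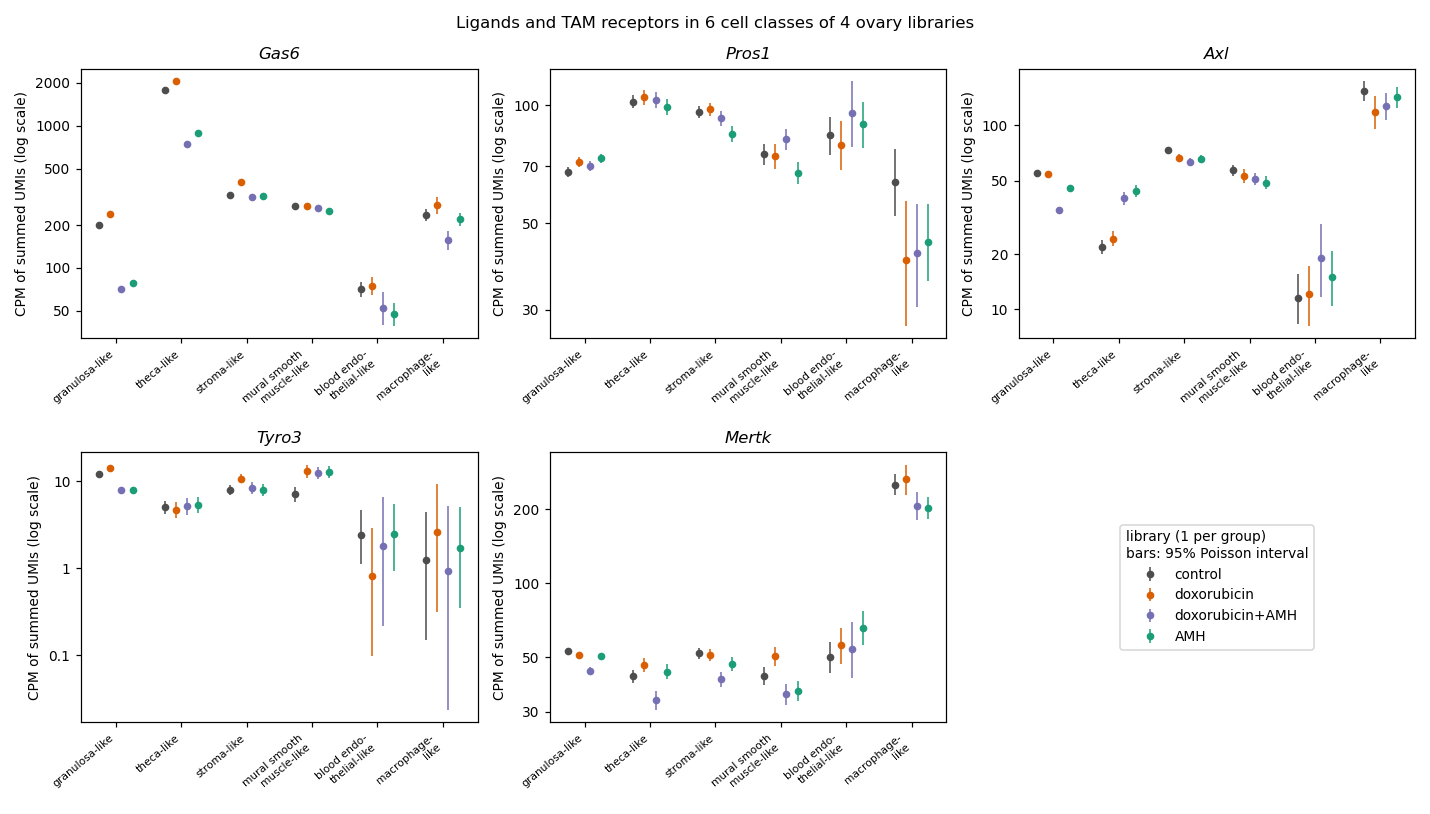
Level of each gene (y axis, CPM of summed UMIs, log scale) in 6 cell classes (x axis) of 4 libraries (colours), with exact 95% Poisson intervals that cover counting error only. Gas6 in theca-like cells lies between 739 and 2045 CPM, and Mertk and Axl are highest in macrophage-like cells.

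Granulosa-like cells, which surround and nourish the oocyte, held Gas6 at 199.8 CPM in the control library, 240.0 with doxorubicin, 71.6 with doxorubicin+AMH and 77.8 with AMH. Both libraries with AMH lay below both libraries without it. Gas6 fell with AMH against control, to a ratio of 0.39 (0.38 to 0.40), and with doxorubicin+AMH against doxorubicin, to 0.30 (0.29 to 0.31). Of the 4 members that passed the level filter in granulosa-like cells, Gas6 alone was past 2-fold in each, where 0.665% and 0.831% of all 6615 genes tested were past 2-fold in these comparisons. The rule used these contrasts, so nothing is read from that count. Doxorubicin against control gave 1.20 (1.17 to 1.23) and doxorubicin+AMH against AMH gave 0.92 (0.88 to 0.96), where 0.0454% and 0.0605% of genes were past 2-fold. With each cell weighted equally, doxorubicin against control was 1.41, and without the 2 clusters that came from the doxorubicin library it was 1.12.

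Within granulosa-like cells Gas6 was highest, among the 7 clusters with at least 50 cells in every library, in the cluster led by Cntn4, Slc18a2 and Amh. There it stood at 535 CPM in the control library, 662 with doxorubicin, 348 with doxorubicin+AMH and 373 with AMH. This cluster held 56.4% of granulosa-like Gas6 UMIs in the control library and 57.5% with doxorubicin, against 36.4% with doxorubicin+AMH and 43.3% with AMH. It made up 21.1% and 20.8% of granulosa-like UMIs of all genes without AMH, and 7.50% and 9.05% with it. Amh leads the cluster and fell with AMH, to 0.32 and 0.36 of its level in granulosa-like cells, so the cluster's size is not compared as a result. The 2 clusters that came nearly all from doxorubicin-treated ovaries held Gas6 at 856 CPM (77 cells, led by Amh, Wfdc10 and Aard) and 654 CPM (176 cells, led by Cntn4, B230209E15Rik and Myh11). In the 176 cells, theca markers summed to 2178 CPM, stroma markers to 1039 and Cyp17a1 stood at 85.3, against 820.1, 88.9 and 8.23 CPM over all granulosa-like cells of that library. Their part in that Gas6 level was not tested. Weighting the 7 clusters with at least 50 cells in every library as in the control library gave Gas6 ratios of 0.575 for AMH against control and 0.503 for doxorubicin+AMH against doxorubicin. Neither is past 2-fold.

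**Figure D2:**
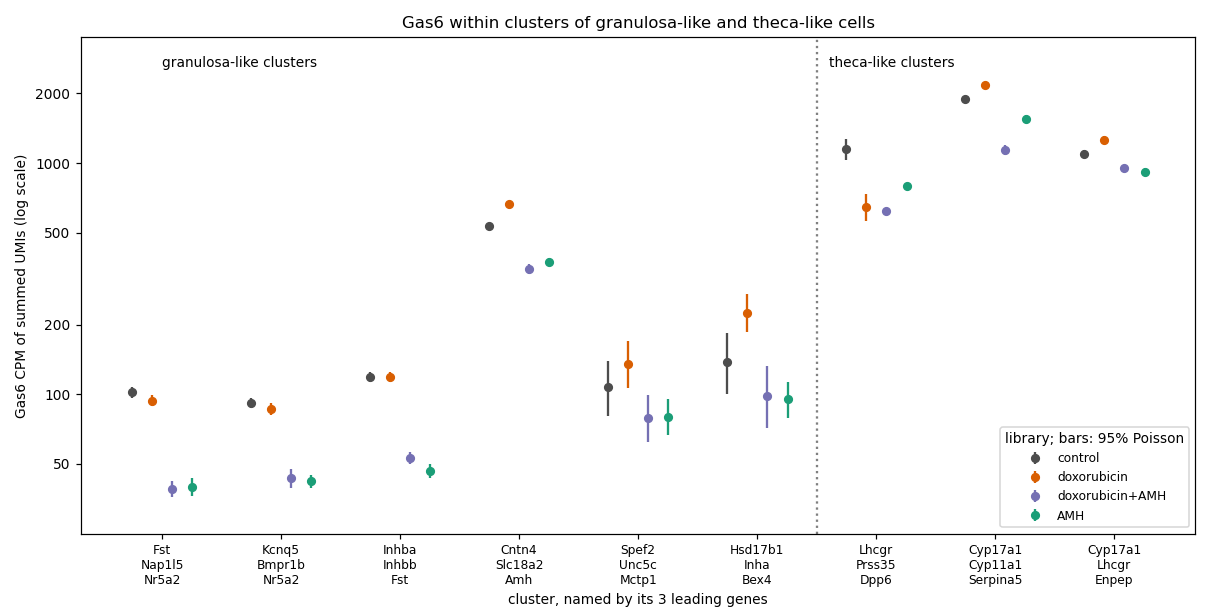
Gas6 level (y axis, CPM, log scale) in 6 granulosa-like and 3 theca-like clusters (x axis, each named by 3 leading genes) of 4 libraries (colours), with exact 95% Poisson intervals. Both AMH libraries lie below both other libraries in each of the 6 granulosa-like clusters shown. The theca-like cluster Lhcgr Prss35 Dpp6 has only 35 control and 24 doxorubicin cells.

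The ratios within clusters differed in size. In the cluster led by Cntn4, Slc18a2 and Amh, AMH against control gave 0.70 (0.67 to 0.73) and doxorubicin+AMH against doxorubicin 0.53 (0.50 to 0.55). In the cluster led by Fst, Nap1l5 and Nr5a2 the levels were 102, 94.0, 38.9 and 39.9 CPM in library order, and the ratios 0.39 (0.35 to 0.43) and 0.41 (0.37 to 0.46). The cluster led by Kcnq5, Bmpr1b and Nr5a2 had 92.0, 86.5, 43.4 and 42.1 CPM and the cluster led by Inhba, Inhbb and Fst had 119, 119, 53.0 and 46.6 CPM. In these 3 clusters both AMH libraries were at 0.39 to 0.50 of their comparison library. The clusters led by Spef2 and by Hsd17b1 and Inha, shallow over all libraries together, rested on 43 to 131 Gas6 UMIs per library and gave ratios of 0.44 to 0.75. Cells of the Hsd17b1 cluster had a median of 7393 UMIs in the AMH library against 3663 in the control library. The part of this depth difference in its ratios was not tested.

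Erythroid-like and T or NK-like cells, which should lack Gas6, served as a gauge of its background. Free RNA and droplets with more than 1 cell were not told apart. After every cell was thinned to 2000 UMIs, a Gas6 UMI was found in 6.52% of erythroid-like cells in the control library, 11.1% with doxorubicin and 3.23% in each AMH library, and in 2.38% to 12.3% of T or NK-like cells. Median depths before thinning were 3928 to 6553 UMIs in these cells and 16300.5 to 22453 in granulosa-like cells. In the granulosa-like clusters led by Fst, by Kcnq5 and by Inhba and Inhbb, the thinned share was 14.0% to 19.5% without AMH and 6.57% to 11.1% with it. In the doxorubicin+AMH library they lie between the erythroid-like share (3.23%) and the T or NK-like share (12.3%). In the AMH library they lie above both, 3.23% and 2.38%, which rest on 31 and 42 cells, but inside the exact 95% intervals of both, whose upper ends are 16.7% and 12.6%. How much of the Gas6 left in these clusters with AMH is background was not tested. The cluster led by Cntn4, Slc18a2 and Amh had 60.4%, 70.1%, 50.3% and 45.4% in library order, above both background classes in every library. On the CPM scale the background was uneven, at 27.2 to 96.2 in erythroid-like cells and 37.7 to 461 in T or NK-like cells, the last on 26 cells of the doxorubicin library. Without thinning, 75.8% of granulosa-like cells had a Gas6 UMI in the control library and 49.3% with AMH.

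Markers of theca cells, where Gas6 is most abundant, were also measured in the granulosa-like cells. The 8 theca markers summed to 881, 820.1, 949 and 852 CPM over all granulosa-like cells in library order. Cyp17a1, which is 1 of the 8 and encodes the androgen-producing enzyme of theca cells, moved with Gas6, at 7.29, 8.23, 1.00 and 1.41 CPM, with ratios of 0.19 (0.16 to 0.24) for AMH against control and 0.12 (0.09 to 0.16) for doxorubicin+AMH against doxorubicin. Its part in the result was not tested. Within the cluster led by Cntn4, Slc18a2 and Amh the 8 markers summed to 582, 529.6, 223 and 271 CPM and so moved with Gas6 there, and their part in the result was not tested. None of the 8 was at 0 in the control library of that cluster, and 1 was at 0 in each other library. Gas6 had 68.6 to 328 UMIs for each UMI of Cyp17a1 in that cluster, against 0.936 to 6.30 in theca-like cells of the same libraries. The 15 dissociation stress genes summed to 6115, 6265, 6369 and 5969.8 CPM in granulosa-like cells. Of these, 2 were past 2-fold higher for AMH against control, the heat shock genes Hspa1a at 2.02 and Hspa1b at 2.51, and Hspa1b was past 2-fold lower for doxorubicin+AMH against AMH, at 0.47. They were named after their values were seen, and in each other compared class at least 2 of the 15 were also past 2-fold higher for AMH against control. The part of these genes in the Gas6 result was not tested. The 8 genes of the BMP/SMAD response, which AMH signalling is known to raise, summed to 977, 971, 1215 and 1298 CPM over all granulosa-like cells and to 480.1, 447, 1248 and 1223 CPM in that cluster.

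In theca-like cells Gas6 fell with AMH as well. AMH against control gave 0.49 (0.48 to 0.50) and doxorubicin+AMH against doxorubicin 0.36 (0.35 to 0.37), while doxorubicin against control gave 1.14 (1.12 to 1.16) and doxorubicin+AMH against AMH 0.84 (0.82 to 0.86). In these 4 comparisons 6.87%, 6.68%, 0.144% and 0.128% of the 6262 genes tested were past 2-fold. The ratio for AMH against control left the 2-fold range with a mitochondrial limit of 10% (0.53), with median-of-ratios scaling (0.52) and with each cell gated alone (0.61). Different clusters held most theca-like cells in the 2 kinds of library. The cluster led by Cyp17a1, Cyp11a1 and Serpina5 held 688 control and 471 doxorubicin cells against 64 in each AMH library, and the cluster led by Lhcgr, Prss35 and Dpp6 held 35 and 24 against 564 with doxorubicin+AMH and 738 with AMH.

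Within the Cyp17a1-led theca-like clusters the Gas6 differences were smaller. The cluster led by Cyp17a1, Cyp11a1 and Serpina5 had 1895, 2176, 1141 and 1551 CPM in library order, with ratios of 0.82 (0.79 to 0.85) and 0.52 (0.50 to 0.55) in the AMH comparisons. The cluster led by Cyp17a1, Lhcgr and Enpep, with 75 to 109 cells in every library, had 1099, 1258, 952 and 916 CPM, with ratios of 0.83 (0.79 to 0.88) and 0.76 (0.72 to 0.80). Both AMH libraries were below both others in these clusters. The cluster led by Lhcgr, Prss35 and Dpp6, which held most theca-like cells of the AMH libraries, had 1150.4, 643, 619 and 792 CPM, with ratios of 0.69 (0.62 to 0.77) and 0.96 (0.84 to 1.11). There the AMH library was above the doxorubicin library, which had 24 cells. Those 24 cells held theca markers at 1624 CPM and stroma markers at 3003, against 5942 and 1191 CPM with doxorubicin+AMH. The part of these markers in the Gas6 ratio was not tested. With the control mix of theca-like clusters the class ratios became 0.818 and 0.543, neither past 2-fold. The 8 theca markers themselves summed to 17928, 17407, 7385 and 6519.9 CPM in theca-like cells, and moved with Gas6. Summed dissociation stress genes, 15 in all, were 9558, 10405, 13275 and 13402 CPM and moved the other way. The part of either in the result was not tested, and none of these markers was at 0.

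In the other 4 compared classes no Gas6 ratio was past 2-fold. In stroma-like cells, the connective tissue of the ovary, AMH against control gave 0.98 (0.95 to 1.01) and doxorubicin+AMH against doxorubicin 0.78 (0.76 to 0.80), and the highest level was with doxorubicin. The background there was 0.242%, 0.317%, 0.0906% and 0.151% of 6621 genes in the order of comparisons just used for theca-like cells. Mural smooth muscle-like cells gave 0.92 (0.88 to 0.96) and 0.97 (0.92 to 1.02), with a background of 0.258%, 0.304%, 0.622% and 0.562% of 6588 genes in the same order. Blood endothelial-like cells gave 0.67 (0.53 to 0.84) and 0.70 (0.51 to 0.95), with a background of 1.85%, 1.74%, 0.48% and 1.54% of 6878 genes. There Cyp17a1, at 15.9, 6.84, 0.902 and 2.08 CPM, and the theca markers, which summed to 284, 169, 97.4 and 194 CPM, were also lower with AMH than in the control library. Stroma markers summed to 245, 152, 263 and 639 CPM and erythroid markers to 16.4, 16.1, 18.9 and 383, both highest with AMH. Their part in the Gas6 ratios was not tested. Macrophage-like cells gave 0.93 (0.81 to 1.08) and 0.57 (0.46 to 0.70), with a background of 2.08%, 5.17%, 3.99% and 3.95% of 6347 genes. The blood endothelial-like and macrophage-like sums are small, with 58 to 387 Gas6 UMIs per library, and those of blood endothelial-like cells carry the uncertainty from Tmem255b. With each cell gated alone, the mural smooth muscle-like ratio of doxorubicin+AMH against doxorubicin was 0.591. Of the classes with under 50 cells in a library, surface epithelial-like cells joined 2 clusters in unequal mixes, so no ratio is given for the class. One, led by C3, Slpi and Upk3b, with 41, 39, 2 and 35 cells in library order, had Gas6 at 1626, 2321, 1673 and 1984 CPM. The other, led by Lgals7, Upk3b and Nrg1, with 67, 55, 36 and 31 cells, had 266, 719, 576 and 433 CPM. The share of all genes past 2-fold was not computed for these cells. The few T or NK-like and erythroid-like cells, read here as background, also differed by over 2-fold.

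Over all 5 genes, 6 classes and 4 comparisons there were 120 ratios, of which 92 concerned a gene that passed the level filter in its class. Of these 92, 5 were past 2-fold: Gas6 in granulosa-like and theca-like cells in both AMH comparisons, and Axl in theca-like cells with AMH against control. The share of all genes past 2-fold in the single comparisons runs from 0.0454% to 6.87%, and 3 of the 5 ratios lie in the theca-like AMH comparisons, where it is 6.87% and 6.68%. Another 70 lay within 1.25-fold of no difference. Tyro3 passed the filter in no class, and Axl did not pass in blood endothelial-like cells. A further 5 ratios, all of Tyro3, rested on sums at or under 3 UMIs in both libraries and are not given.

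**Figure D3:**
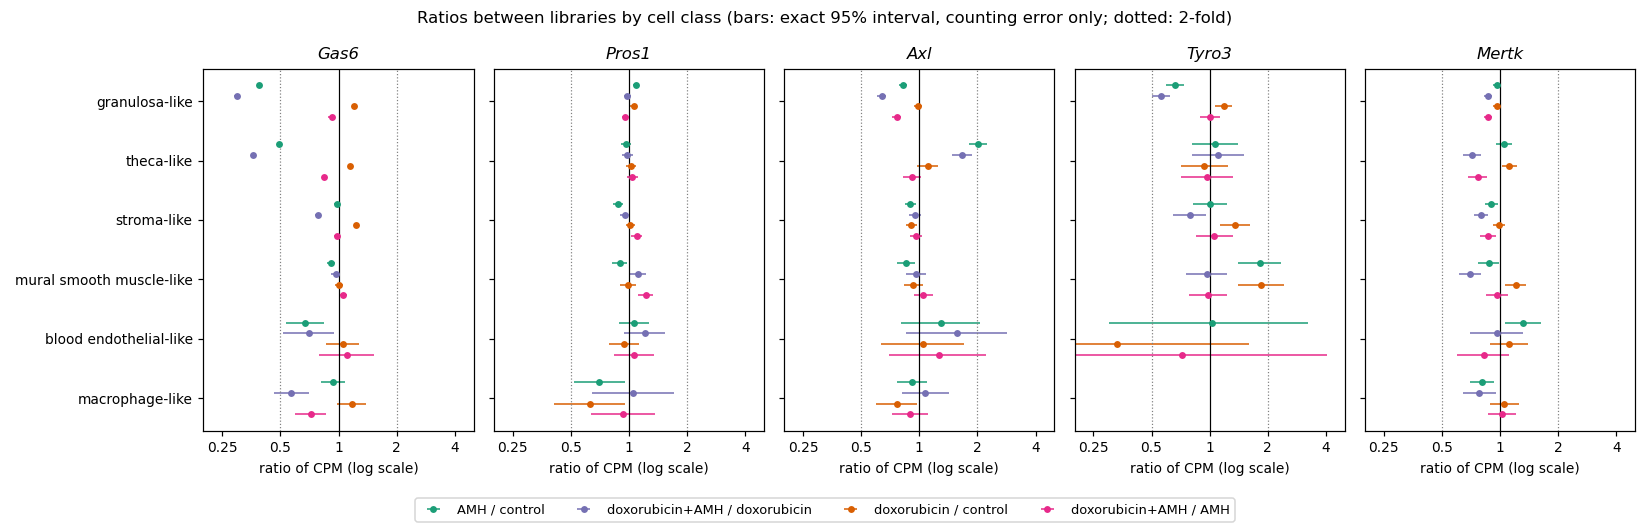
Ratio of CPM between libraries (x axis, log scale, 1 means no difference, dotted lines mark 2-fold) for each gene in 6 cell classes (y axis) and 4 comparisons (colours), with exact 95% intervals for counting error. Gas6 in granulosa-like and theca-like cells lies left of the lower 2-fold line in both AMH comparisons, and Axl in theca-like cells lies to the right at 2.01 and 1.66.

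Pros1, the other ligand and better known as an anticoagulant, differed little between libraries in theca-like, granulosa-like and stroma-like cells. Theca-like cells held 102, 105, 103 and 99.0 CPM in library order, granulosa-like cells 67.5, 71.6, 70.2 and 73.3 and stroma-like cells 96.2, 97.8, 92.9 and 84.6. The highest level was in lymphatic endothelial-like cells, 38 to 77 per library, at 158 to 208 CPM, above the range of every other class. Theca-like cells came next, with a range that overlapped no other. The blood endothelial-like range overlapped those of stroma-like and of mural smooth muscle-like cells, and the mural smooth muscle-like range that of granulosa-like cells. In granulosa-like cells AMH against control gave 1.09 (1.04 to 1.13) and doxorubicin+AMH against doxorubicin 0.98 (0.94 to 1.02). In theca-like cells the same comparisons gave 0.97 (0.91 to 1.03) and 0.98 (0.92 to 1.05). Macrophage-like cells differed more, at 63.8, 40.2, 41.9 and 44.9 CPM in library order, highest in the control library, with ratios of 0.70 (0.52 to 0.95) for AMH against control and 0.63 (0.41 to 0.95) for doxorubicin against control, which share that library. Theca markers in macrophage-like cells summed to 461, 240, 426 and 127 CPM in library order, also highest in the control library. Their part in the Pros1 ratios was not tested.

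Pros1 and Gas6 were high in different granulosa-like clusters. Pros1 was highest in the cluster led by Kcnq5, Bmpr1b and Nr5a2, at 115, 129.9, 153 and 119 CPM in library order, where Gas6 was at 92.0, 86.5, 43.4 and 42.1 CPM. In the cluster led by Cntn4, Slc18a2 and Amh, where Gas6 was lower with AMH, Pros1 was higher, at 53.8, 50.5, 88.4 and 88.8 CPM. The Pros1 ratios there were 1.65 (1.48 to 1.84) for AMH against control and 1.75 (1.54 to 1.98) for doxorubicin+AMH against doxorubicin, which is under 2-fold. In the theca-like cluster led by Cyp17a1, Cyp11a1 and Serpina5 Pros1 was lower with AMH, at 109, 113, 65.9 and 83.8 CPM. With the control mix of theca-like clusters the class ratio of doxorubicin+AMH against doxorubicin was 0.624.

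Axl, the receptor with the highest affinity for GAS6, was highest in macrophage-like cells, at 154, 118, 127 and 142 CPM in library order. Stroma-like cells held 73.1, 66.5, 63.2 and 65.7 CPM, mural smooth muscle-like cells 57.1, 53.1, 51.2 and 48.9 and granulosa-like cells 55.1, 54.3, 34.6 and 45.4. The mural smooth muscle-like range overlaps the granulosa-like range, and blood endothelial-like cells lay lowest of the 6 classes, at 11.6 to 18.9 CPM. In theca-like cells Axl stood at 21.9 CPM in the control library, 24.2 with doxorubicin, 40.2 with doxorubicin+AMH and 44.0 with AMH. Axl rose there with AMH against control, 2.01 (1.80 to 2.24), and doxorubicin+AMH against doxorubicin gave 1.66 (1.47 to 1.87), under 2-fold. The ratio of 2.01 was under 2-fold in 5 of 13 alternative settings, at the lowest 1.51. In granulosa-like cells Axl was lower, at 0.82 (0.79 to 0.86) and 0.64 (0.60 to 0.67).

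Both Axl differences were smaller with the clusters weighted alike. With the control mix of clusters the theca-like ratios were 1.51 and 1.37 and the granulosa-like ratios 1.02 and 0.897. In the theca-like cluster led by Cyp17a1, Cyp11a1 and Serpina5 Axl was at 20.5, 22.9, 33.0 and 32.1 CPM, with ratios of 1.56 (1.15 to 2.08) and 1.44 (1.03 to 1.96). In the theca-like cluster led by Lhcgr, Prss35 and Dpp6 it was at 45.1, 56.8, 44.0 and 46.7 CPM. The granulosa-like cluster led by Cntn4, Slc18a2 and Amh held the most Axl, 99.9, 105, 107 and 124 CPM, and the clusters led by Fst or by Inhba and Inhbb held 21.2, 20.9, 19.9 and 20.8 and 22.1, 22.7, 23.4 and 22.7 CPM. Stroma markers in theca-like cells summed to 472, 520.0, 1242 and 1294 CPM and moved with Axl, and their part in the result was not tested.

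Mertk, the receptor known for engulfment by macrophages, was highest in macrophage-like cells, at 251, 264, 207 and 202 CPM in library order. No other compared class exceeded 65.8 CPM: granulosa-like cells held 52.9, 50.9, 44.1 and 50.7 CPM, stroma-like cells 51.9, 51.1, 40.7 and 46.9, theca-like cells 41.8, 46.7, 33.4 and 43.7 and blood endothelial-like cells 50.1, 55.9, 54.1 and 65.8. The ranges of granulosa-like, stroma-like, theca-like and mural smooth muscle-like cells overlap one another, and the blood endothelial-like range lies above that of theca-like cells. In macrophage-like cells AMH against control gave 0.80 (0.70 to 0.93) and doxorubicin+AMH against doxorubicin 0.78 (0.64 to 0.95). With each cell weighted equally the first became 1.02, on the other side of 1. No Mertk ratio in any compared class was past 2-fold, and the doxorubicin+AMH library was lowest in granulosa-like, theca-like, stroma-like and mural smooth muscle-like cells. Doxorubicin+AMH against doxorubicin gave 0.72 (0.64 to 0.80) in theca-like cells and 0.70 (0.61 to 0.80) in mural smooth muscle-like cells.

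Although macrophage-like cells held the highest levels of Mertk and Axl, they were 1.53% to 2.47% of cells and held 3.11% to 5.22% of Mertk UMIs and 1.36% to 3.66% of Axl UMIs. Granulosa-like cells held 44.3% to 56.5% of Mertk UMIs, 41.7% to 50.9% of Axl UMIs and 36.0% to 52.5% of Pros1 UMIs. Theca-like cells were 9.43% to 11.4% of cells and held 40.1% to 59.3% of Gas6 UMIs, with the lower shares in the AMH libraries. Over all kept cells together, Gas6 stood at 496 CPM in the control library, 572 with doxorubicin, 234 with doxorubicin+AMH and 245 with AMH, and Pros1 between 73.5 and 80.1.

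**Figure D4:**
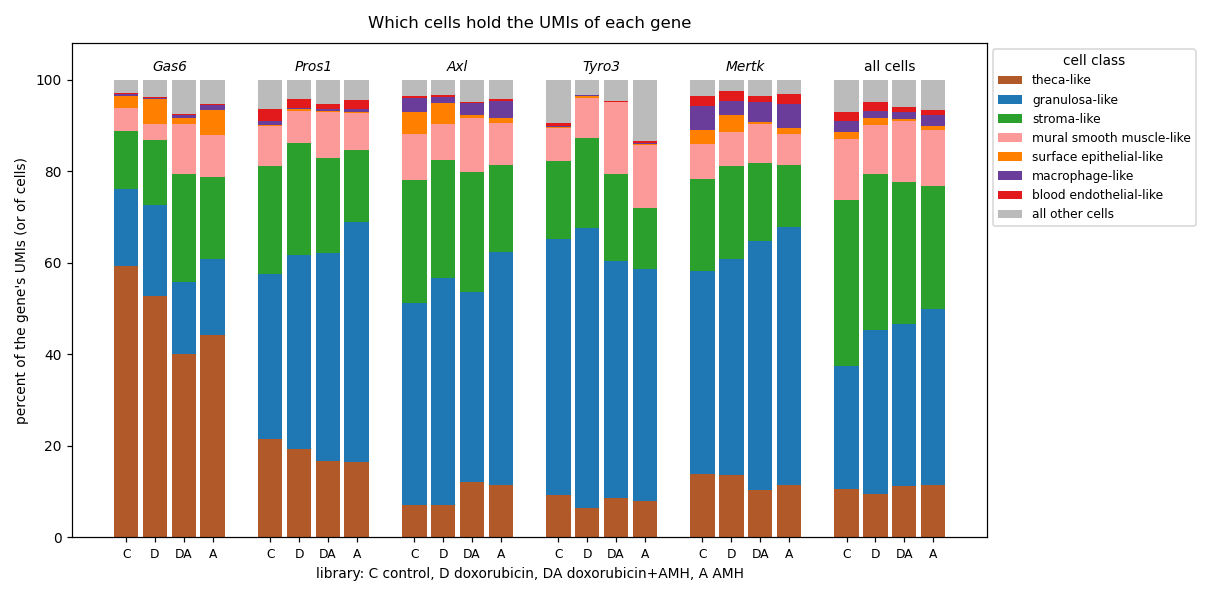
Share of each gene's UMIs held by each cell class (y axis, percent, stacked bars) in the 4 libraries (x axis), beside the share of cells in each class at the right. Theca-like cells hold 40.1% to 59.3% of Gas6 UMIs, and granulosa-like cells 50.7% to 61.3% of Tyro3 UMIs.

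Tyro3, the remaining receptor, best known from the nervous system, gave few UMIs, 959 to 1412 per library. Granulosa-like cells held 12.0, 14.1, 7.93 and 7.88 CPM in library order, with ratios of 0.66 (0.59 to 0.73) and 0.56 (0.50 to 0.63) in the AMH comparisons. Within them it was highest in the cluster led by Cntn4, Slc18a2 and Amh, the cluster that also held the most Gas6, at 27.4, 35.2, 19.7 and 19.6 CPM. There AMH against control gave 0.72 (0.58 to 0.87) and doxorubicin+AMH against doxorubicin 0.56 (0.44 to 0.70). Stroma-like cells held 7.87, 10.6, 8.37 and 7.91 CPM and theca-like cells 4.99, 4.68, 5.17 and 5.35. Oviduct-type epithelial-like cells held 16.9 to 22.0 CPM in the 3 libraries other than doxorubicin, which had only 1 such cell.

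In mural smooth muscle-like cells, the contractile cells around vessels and follicles, Tyro3 stood at 7.02 CPM in the control library, 12.9 with doxorubicin, 12.5 with doxorubicin+AMH and 12.7 with AMH. The control library was the lowest, on 100 UMIs, with ratios of 1.81 (1.41 to 2.35) for AMH against control and 1.84 (1.41 to 2.42) for doxorubicin against control. These comparisons share the control library, and neither is past 2-fold. Macrophage-like and blood endothelial-like cells held 1 to 3 and 2 to 9 Tyro3 UMIs per library. After thinning, 1.24% to 2.60% of granulosa-like cells had a Tyro3 UMI, and none of the erythroid-like cells did, 31 to 62 per library.

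Other genes of the pathway were read from 8 lists with 56 genes in all. In granulosa-like cells 27 passed the level filter, and none was past 2-fold in any of the 4 comparisons, where 0.665%, 0.831%, 0.0454% and 0.0605% of all genes were. A count of 0 among 27 is near that background and is no result about the pathway. Their median ratio was 0.969 for AMH against control and 0.975 for doxorubicin+AMH against doxorubicin, beside 0.955 and 0.974 over all genes. Vkorc1l1, which helps to recycle vitamin K for the carboxylation of Gla domains, gave 0.94 and 1.02. Adam10, a protease that sheds receptor ectodomains, gave 0.97 and 0.92. Itgav, the integrin chain that binds the bridging protein MFG-E8, gave 0.88 and 1.16.

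Genes of the remaining lists are given for granulosa-like cells in the same order of comparisons. Tmem30a, a subunit of the flippases that keep phosphatidylserine inside, gave 1.13 and 1.09, and Elmo1, part of the engulfment machinery that activates RAC1, gave 0.89 and 1.00. Pik3r1, a regulatory subunit of PI3 kinase below the receptors, gave 0.94 and 0.91. Mgp, another Gla-domain protein and an inhibitor of calcification, gave 1.01 and 0.90. The 2 Gla-domain genes that passed had median ratios of 1.04, 0.840 and, for doxorubicin+AMH against AMH, 0.788, beside 0.955, 0.974 and 1.00 over all genes. None of the 3 other listed ligands, Tub, Tulp1 and Lgals3, passed the filter in granulosa-like cells. In stroma-like cells 31 of the 56 passed, and none was past 2-fold, near the background of 0.242%, 0.317%, 0.0906% and 0.151%. In macrophage-like cells, the engulfing class, 30 passed, and 1, 3, 4 and 1 were past 2-fold for AMH against control, doxorubicin+AMH against doxorubicin, doxorubicin against control and doxorubicin+AMH relative to AMH, beside 2.08%, 5.17%, 3.99% and 3.95% of all genes. The ligand Lgals3 passed there, with ratios of 1.40 and 1.93 in the AMH comparisons. Mfge8, which encodes the bridging protein MFG-E8 and was named after its values were seen, stood at 35.3 CPM in the control library, 7.78 with doxorubicin, 153 with doxorubicin+AMH and 72.7 with AMH.

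In theca-like cells 27 of the 56 passed, with 1 past 2-fold for AMH against control and 2 for doxorubicin+AMH against doxorubicin, all higher, beside the background of 6.87% and 6.68%. Mgp rose in both, from 41.4 CPM in the control library to 96.1 with AMH, a ratio of 2.32 (2.15 to 2.51), and from 34.9 with doxorubicin to 127 with doxorubicin+AMH, a ratio of 3.64 (3.33 to 3.98). Mgp stood at 2433 to 2763 CPM in stroma-like cells, and the stroma marker sums in theca-like cells given above moved with it. Elmo1 was lower in theca-like cells, at 0.53 and 0.51, and Itgav higher, at 1.82 and 1.68, neither past 2-fold. The second gene past 2-fold for doxorubicin+AMH against doxorubicin was Socs3, a feedback inhibitor of cytokine signalling and also a member of the dissociation stress list, at 2.28; it was named after its value was seen.

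**Figure D5:**
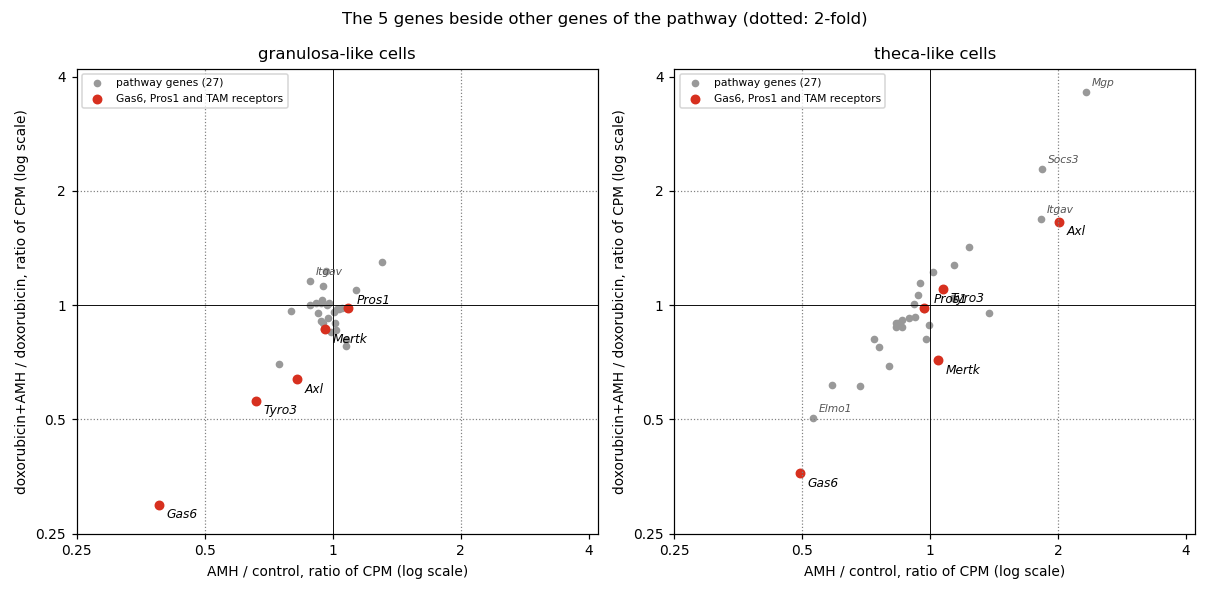
Ratio of CPM for AMH against control (x axis, log scale) and for doxorubicin+AMH against doxorubicin (y axis, log scale) for the 5 genes (red) and the 27 pathway genes that passed the level filter (grey) in granulosa-like (left) and theca-like cells (right); dotted lines mark 2-fold. In granulosa-like cells Gas6 stands alone at 0.39 and 0.30, and in theca-like cells Mgp lies at the opposite corner.

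Genes with the most similar pattern were ranked by Pearson correlation of log2(CPM + 5) over the 24 sums of 6 classes and 4 libraries, among 7142 genes. The points share libraries and class totals, so the values only describe likeness. Among the genes with a pattern most like that of Gas6 were Etfb, a subunit of the mitochondrial electron transfer flavoprotein (r = 0.95), Ctsf, a lysosomal protease (r = 0.94), Gadd45gip1 (r = 0.89) and Pde8b, a cAMP phosphodiesterase (r = 0.89). Over the 28 sums of 7 granulosa-like clusters and 4 libraries, among 6636 genes, the nearest to Gas6 were Pdpn (r = 0.90), Aard (r = 0.88), Nipsnap2 (r = 0.84), Ap1ar (r = 0.80) and Col18a1, a basement membrane collagen (r = 0.79).

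For the others over the 24 class sums, with r in parentheses, Pros1 was nearest to Rprd1a (0.94), Heg1 (0.93) and C1qtnf6 (0.92). Axl was nearest to Notch2 (0.95), Itgb5 (0.94) and Mrtfa (0.93). Tyro3, at its low counts, was nearest to Nnat (0.94), Foxl2 (0.93) and Sox5os4 (0.92). Foxl2 encodes a granulosa cell transcription factor but reached 122 CPM in another compared class, above the 61.7 to 99.5 CPM of granulosa-like cells. Mertk was nearest to Tnfrsf1b (0.98), Pf4 (0.98) and Apobec1 (0.98), of which Pf4 is a chemokine gene high in resident macrophages. None of the other 4 members was among the genes nearest to Gas6: r was 0.31 for Pros1, 0.20 for Axl, 0.24 for Tyro3 and -0.16 for Mertk over the class sums. Over the granulosa-like cluster sums r with Gas6 was 0.69 for Tyro3, 0.56 for Axl, -0.13 for Pros1 and -0.23 for Mertk.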

How the data were processed

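The 4 libraries (10x Genomics 3′ v3.1 chemistry, ovary cells) were read as UMI count matrices deposited by the authors, with 1 count per gene and cell barcode. The counts were made with Cell Ranger 7.0.0, per the file headers. R 4.2.0, Seurat 4.1.0 and the mm10 build are named in the submitters' processing notes. Whether intronic reads or strand were counted is not given in the sources used here. Levels were therefore compared within a gene, and UMIs of Gas6 were set beside those of Cyp17a1 and Tmem255b only as ratios or counts within the same cells.

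Barcodes below 1000 UMIs or above 20% mitochondrial UMIs were dropped. Doublets were then removed by Scrublet score at 0.8% per 1000 cells (408 to 719 per library). All libraries were clustered together (scanpy 1.11.5, leidenalg 0.10.2, 2000 variable genes, 30 components, 20 neighbours, resolution 1) and clusters were named from marker lists, with naming thresholds set after the data were seen. UMIs were summed per class or cluster and library. Intervals were exact Poisson (levels), Clopper-Pearson (shares) and conditional binomial (ratios), at 95%, in SciPy 1.17.1. They cover counting error only, and a sum of 3 counts or fewer gave no ratio where both libraries were that low. The ratio step was run on simulated counts with counting error only and planted changes larger than 2-fold. Such counts cannot show how it handles ratios near 2-fold or the spread between animals. Each library pools 5 animals, so no p-value is given.

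The 5 genes and all lists were chosen with earlier results of these data known. Named pathway genes were those past 2-fold the same way in both comparisons of a pair that shares no library, in granulosa-like, theca-like or stroma-like cells, and the most abundant gene of each list in granulosa-like cells. Pattern likeness named the 5 genes nearest to Gas6, and 3 for each other member. Of these, 1 gene is not reported here, nor is 1 of the 7 compared granulosa-like clusters on its own, though its cells stay in all class sums. Alternatives comprised 10 settings planned at the outset and 4 added after seeing the data.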

Additional observations from a re-analysis of the deposited data

Results flagged for a closer look

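The Axl ratios with AMH lay on opposite sides of 1 in theca-like and granulosa-like cells. In theca-like cells the ratio was 2.01 for AMH against control and 1.66 for doxorubicin+AMH against doxorubicin. In granulosa-like cells it was 0.824 and 0.638. Only the ratio of 2.01 is past 2-fold, in a comparison where 6.87% of all genes tested were. Each class has 1 library per group, so the difference between the classes was not tested. With every library given the control mix of clusters, the theca-like ratios were 1.51 and 1.37 and the granulosa-like ratios 1.02 and 0.897. The opposite direction was then kept in 1 of the 2 comparisons, on the granulosa-like ratio of 0.897, which is within 1.25-fold of no difference. Stroma markers in theca-like cells moved with Axl, and their part was not tested.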

How the results depend on the processing

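None of the 5 ratios past 2-fold changed direction in the 13 alternatives run for each, some of them chosen after seeing the data. Of all 115 ratios, 8 crossed the 2-fold line under some alternative and 13 moved by over 1.5 times, while ratios near 1 and several others, among them Axl and Tyro3 ratios in blood endothelial-like cells, Axl in granulosa-like cells and Mertk in macrophage-like and blood endothelial-like cells, changed sides of 1 in some. Gas6 in granulosa-like cells with AMH against control, 0.39 as reported, was 0.431 with doublets left in, 0.417 with cells weighted equally, 0.409 with median-of-ratios scaling, 0.404 with a pseudocount of 5 CPM and 0.575 with the control mix of clusters. With doxorubicin+AMH against doxorubicin, 0.30 as reported, it was 0.288 with a mitochondrial limit of 10%, 0.334 with doublets, 0.309 with each library clustered alone, 0.316 with each cell gated alone, 0.278 with equal weights, 0.313 with the pseudocount, 0.320 without clusters over 90% from 1 library and 0.503 with the control mix. Doxorubicin against control, 1.20 as reported, was 1.16 with libraries clustered alone and with cells gated alone, 1.41 with equal weights, 1.12 without clusters over 90% from 1 library and 1.11 with the control mix. Doxorubicin+AMH against AMH was 0.967 with the control mix. The cause of these moves was not tested. Gas6 in theca-like cells with AMH against control crossed the 2-fold line in 4 alternatives, at 0.520 to 0.818. Axl in theca-like cells with AMH against control was under 2-fold in 5 alternatives, at 1.51 to 1.92. With each cell gated alone, mural smooth muscle-like cells gave Gas6 0.591 for doxorubicin+AMH against doxorubicin and 0.641 against AMH, and Pros1 1.68 for the former. With the control mix, Tyro3 in theca-like cells with AMH against control was 1.69. Gas6 in macrophage-like cells with doxorubicin+AMH against doxorubicin reached 0.395, and in blood endothelial-like cells 0.465 with doublets left in. Without the filter on low levels, pathway genes past 2-fold numbered 8, 4, 4 and 6 in granulosa-like cells (AMH to control, doxorubicin+AMH to doxorubicin, doxorubicin to control, doxorubicin+AMH to AMH). In that order they numbered 9, 12, 5 and 6 among theca-like cells and 3, 7, 7 and 6 among stroma-like cells, since low-count genes then enter. These are of the 54 or 55 pathway genes with a UMI, and under the same setting 17.7% to 28.9% of all genes were past 2-fold. No paired analysis was possible because each group is 1 pooled library. Depth limited Tyro3 most, with sums of 1 to 9 UMIs per library in macrophage-like and blood endothelial-like cells.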

Other observations

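A cluster of 546 cells led by Enpep, Hhip and Birc5, with the proliferation genes Mki67 and Top2a among its leading genes, could not be named and entered no comparison of classes. It held Gas6 at 317 CPM in the control library, 454 with doxorubicin, 361 with doxorubicin+AMH and 238 with AMH, on 904 to 2486 UMIs. The AMH library was the lowest. In both AMH comparisons Gas6 was lower with AMH, as in the granulosa-like and theca-like classes. The doxorubicin+AMH library was above the control library here but below it in those classes. That contrast differs in both treatments, and the difference was not tested. Pros1 in this cluster stood at 56.0, 54.1, 49.9 and 29.5 CPM in the same order, with AMH again the lowest. Axl stood at 43.4, 35.8, 41.3 and 38.4 CPM and Mertk at 21.5, 26.1, 21.2 and 18.4 CPM. The other unnamed cluster, 127 cells led by the antigen presentation genes Cd74, H2-Eb1 and H2-Aa, held 0 or 1 Mertk UMI per library. These counts come from 11 to 50 cells per library, with median depths of 8797.5 to 10960 UMIs. Macrophage-like cells held Mertk at 202 to 264 CPM, and the size of the gap is not given because the units differ.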
